A study of Mus musculus with 4 samples.

Results

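The Dlx and Msx genes encode homeodomain transcription factors related to Drosophila Distal-less and muscle segment homeobox. The 8 genes described here, Dlx1, Dlx2, Dlx3, Dlx4, Dlx5, Dlx6, Msx1 and Msx2, were taken by symbol from the deposited transcript tables, which held 22086 genes with a usable estimate in every embryo. A relative that was not among the genes chosen, Msx3, was listed at 0 in all 4 embryos. RNA was sequenced from the RFP+ palatal cells of 4 single mouse embryos of mixed background at E13.5, when the palatal shelves grow beside the tongue. The controls were 1 embryo with the genotype Osr2RFP/+, which is Foxf2+/+ and called wildtype here, and 1 with Foxf2+/-Osr2RFP/+, called heterozygous. The other 2 embryos, the mutants, were Foxf2-/-Osr2RFP/+. All 4 therefore carried the Osr2RFP knock-in allele, which places a red fluorescent protein at the Osr2 locus. Cells were sorted for that protein, and the sorted RNA also held blood and epithelial marker transcripts, given below. The Foxf2 null allele was carried in every tissue of the embryo, and the heterozygous control carried 1 copy of it. The embryos were littermates, and p-values rest on the spread between embryos within each group. In the controls this spread includes the difference between the 2 genotypes, because each control genotype had a single embryo and no replicate of its own.

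Dlx genes lie in convergently transcribed pairs and are expressed in nested domains of the neural crest-derived mesenchyme of the pharyngeal arches. Dlx1 and Dlx2 are used along the whole arch, including the maxillary part from which the palatal shelves grow, whereas Dlx5 and Dlx6, and more distally Dlx3 and Dlx4, give the mandibular part its identity. Msx1 and Msx2 are targets of Bmp signaling that mostly repress transcription. Msx1 and Bmp4 maintain each other's expression in tooth and anterior palatal mesenchyme, mice without Msx1 have cleft palate, and Dlx5 in palatal mesenchyme has been linked to Fgf7 and to Shh in the overlying epithelium.

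The 4 libraries differed little in depth. Coverage per FPKM, a ratio fixed within each table, ranged from 1.36 to 1.61, so that libraries differed by at most 1.19-fold from the wildtype library. Depth in reads is unknown, because the tables hold no counts. Foxf2 itself, the gene removed, had an FPKM of 85.4 in the wildtype embryo, 45.1 in the heterozygous embryo, and 1.41 and 2.28 in the mutants. The 9 palatal mesenchyme markers, Foxf2 included, summed to between 665 and 776 FPKM, against 8.40 to 10.6 for 10 epithelial markers, 0.417 to 1.503 for 6 endothelial markers and 0.223 to 0.701 for 6 skeletal muscle markers. The 8 neuronal and glial markers summed to 3.70 to 7.56 FPKM and 5 bone and cartilage markers to 41.6 to 44.7 FPKM, most of it Col2a1. Blood markers varied most, from 279 in the wildtype embryo to 1719 in the heterozygous embryo and 1488 and 4101 in the mutants. Of the tested markers, only Foxf2 and the embryonic globin gene Hba-x passed 1.5-fold against both controls, and only Foxf2 the limma threshold. Hba-x still overlapped between the groups. Markers with a mean under 1 FPKM were not tested. These were 6 of 10 epithelial, 6 of 6 endothelial and 2 of 6 blood markers. They were also 6 of 8 neuronal and glial, 6 of 6 skeletal muscle and 3 of 5 bone and cartilage markers. Among them Cdh1, Cdh5, Kdr, Emcn, Sox10 and Matn1 were higher, and Ibsp and Actc1 lower, by more than 1.5-fold against both controls. Of all genes under that mean, 8.03% were past this cutoff. In bulk RNA, fewer cells of a type and less RNA per cell cannot be told apart.

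The homeobox is the part of these genes that is most alike, and the sequences below show how far the members can be told apart by their reads. For each gene the 60 coding bases are given that matched Dlx5 best without gaps in the stretch of Dlx5 most alike over the family. This stretch, coding bases 502 to 561 of Dlx5, lies in the homeobox. The sequences are those of mm9 (NCBIM37), 5′ to 3′ on the coding strand, and capitals mark bases that differ from Dlx5.
Dlx5: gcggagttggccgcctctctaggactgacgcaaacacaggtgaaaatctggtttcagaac
Dlx6: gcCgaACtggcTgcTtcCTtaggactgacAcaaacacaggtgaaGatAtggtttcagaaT
Dlx2: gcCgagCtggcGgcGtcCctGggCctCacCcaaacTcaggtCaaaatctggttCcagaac
Dlx1: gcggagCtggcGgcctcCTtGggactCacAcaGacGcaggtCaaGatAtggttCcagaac
Dlx3: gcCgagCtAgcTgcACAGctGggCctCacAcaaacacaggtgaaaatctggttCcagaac
Dlx4: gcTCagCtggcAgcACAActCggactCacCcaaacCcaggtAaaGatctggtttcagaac
Msx1: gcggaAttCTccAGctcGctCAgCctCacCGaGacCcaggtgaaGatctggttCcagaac
Msx2: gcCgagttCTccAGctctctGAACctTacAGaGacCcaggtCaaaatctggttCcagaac

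Of the 60 bases, 49 in Dlx6, 48 in Dlx2, 47 in Dlx1 and Dlx3 and 46 in Dlx4 matched Dlx5, whereas 44 matched in Msx1 and in Msx2. All 8 genes shared 10 of the first 30 bases and 22 of the last 30, which encode part of the helix that contacts DNA. In the 6 Dlx genes the window crossed the boundary of 2 exons, at chr6:6828468-6829564 in Dlx5, chr6:6815233-6817061 in Dlx6, chr2:71382961-71383479 in Dlx2, chr2:71369175-71370341 in Dlx1, chr11:94983174-94984743 in Dlx3 and chr11:95002763-95003141 in Dlx4. In Msx1 it lay within a single exon at chr5:38212743-38212802, and in Msx2 at chr13:53563766-53563825. Over the 28 pairs of members, the longest run of identical coding bases was 26 bases, between Dlx2 and Msx2. A read from coding sequence that is longer than this run therefore differs from every other member in at least 1 base.

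The family was expressed at a moderate level, and its members fell into a high and a low set. Expression is given as FPKM, fragments per kilobase of transcript scaled to the number of mapped fragments, which can be compared between genes because it is scaled by length. The 8 genes together summed to 40.7 FPKM in the wildtype embryo, 43.6 in the heterozygous embryo, and 43.7 and 42.7 in the mutants. Dlx1 and Dlx2 were highest, with a mean over the 4 embryos of 13.3 and 12.3 FPKM, and their ranges overlapped. Msx1 with 7.82 and Dlx5 with 7.43 FPKM followed, overlapping each other but lying below Dlx1 and Dlx2 in each of the 4 embryos. The places of Msx1 and Dlx1 in this order depend on how reads were split with the overlapping Msx1as and Dlx1as, described below. The next gene, Msx2, with a mean of 0.806 FPKM, was below Dlx5 in each embryo, by 8.24-fold on average with 0.1 added to each FPKM. Msx2, Dlx6 with 0.620 FPKM and Dlx3 with 0.357 FPKM overlapped their neighbours in this order, and Dlx4 was lowest in each embryo, with a mean of 0.0433 FPKM. A mean of at least 1 FPKM over the 4 embryos was required for testing, and 4 members, Dlx1, Dlx2, Dlx5 and Msx1, passed, among 11154 genes in all.

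**Figure D1:**
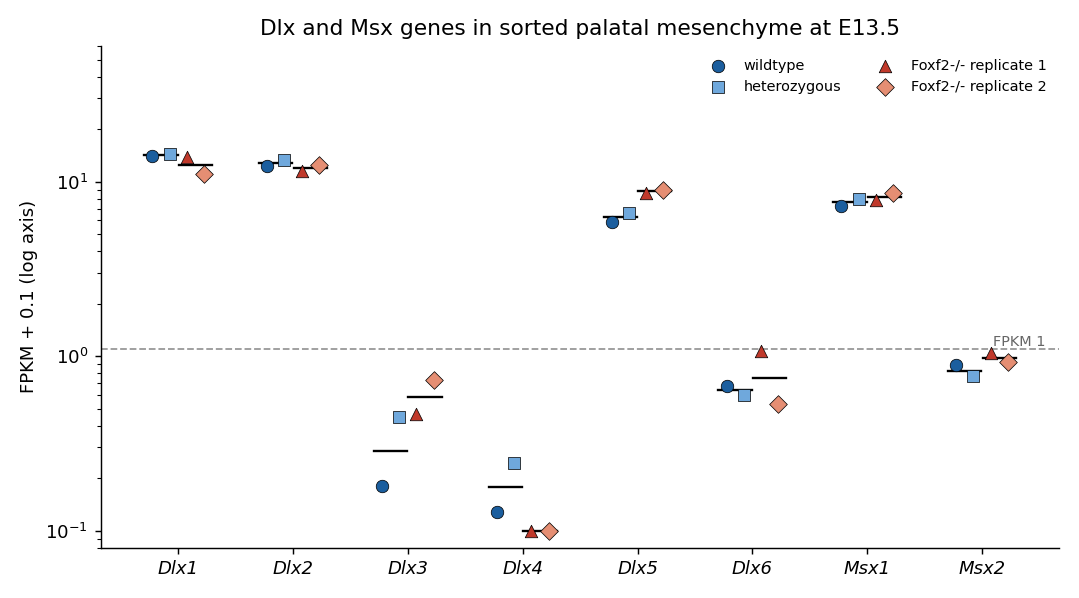
FPKM of the 8 genes in each embryo, with 0.1 added and drawn on a log axis. Points are embryos, short bars are group means of 2 embryos on the log scale, and the dashed line marks an FPKM of 1. Dlx1, Dlx2, Dlx5 and Msx1 lie above the line in every embryo and the other 4 genes below it in every embryo, with Dlx4 at 0 in both mutants.

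To find out which members differed between the genotypes, the 2 mutants were compared with the 2 controls on log2(FPKM + 0.1), a scale that understates the change of genes with low values. No member was called changed by limma at an adjusted p under 0.05 and a change over 1.5-fold. Over all tested genes 7, or 0.0628%, met this, of which 6 were higher and 1 was lower. At an unadjusted p under 0.05 stood 1 of the 4 tested members, Dlx5, and 1452 of the 11154 genes, or 13%. By the fold part of the study's criterion, over 1.5-fold against both control genotypes, 0 of the 4 tested members and 1.4% of tested genes passed. The study also required a corrected p-value, which was not part of this count. Without the filter, 0 of the 8 members passed, against 3.72% of the genes with any signal. Dlx4 could not pass as lower, because it was 0 in both mutants and the 0.1 added exceeds its 0.0281 FPKM in the wildtype embryo. The mutants did not overlap the controls in 5 of the 8 members, 3 above and 2 below, against 40.7% of all genes with any signal. Among tested genes they did not overlap in 2 of the 4 members and in 45.7% of all. The median log2 fold change was -0.08 over all tested genes.

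Dlx5, a target of endothelin signaling in the mandibular arch and a regulator of bone formation, was the tested member with the largest difference. Its FPKM was 5.81 in the wildtype embryo, 6.50 in the heterozygous embryo, and 8.50 and 8.92 in the mutants. Both mutants thus lay above both controls, at 8.71 ± 0.301 against 6.15 ± 0.487 FPKM (mean ± SD, n = 2 each). The log2 fold change was 0.50 (SE 0.11, 95% interval 0.24 to 0.75), that is 1.41-fold with an interval of 1.18 to 1.68. It did not pass the threshold, with a limma adjusted p = 0.195 from an unadjusted p = 0.0023. Compared with each control alone, it was 1.49-fold higher than in the wildtype and 1.34-fold higher than in the heterozygous embryo, so it met a cutoff of 1.3-fold higher than both controls, which 1.46% of tested genes met, but not the cutoff of 1.5-fold. The difference between the controls was 0.16 on the log2 scale and that between the mutants 0.07. Its absolute log2 fold change was larger than that of 95.8% of tested genes, and it ranked 131 of 11154 by p. Of the family's summed FPKM, Dlx5 made up 14.3% and 14.9% in the controls but 19.4% and 20.9% in the mutants. In the mutants its estimate stood above that of Msx1, which depends on the split of reads with Msx1as. The order of the 4 embryos in Dlx5 was also their order in the summed epithelial markers (8.40, 8.81, 9.22 and 10.6 FPKM). The summed endothelial markers (0.417, 0.608, 0.893 and 1.503 FPKM) had it too, and the other marker sums had other orders. The single epithelial markers did not follow it, with Epcam at 1.03, 0.987, 0.901 and 1.69 FPKM. Among the endothelial genes, Kdr and Emcn followed it and the rest did not. The part of those markers in the result was not tested.

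**Figure D2:**
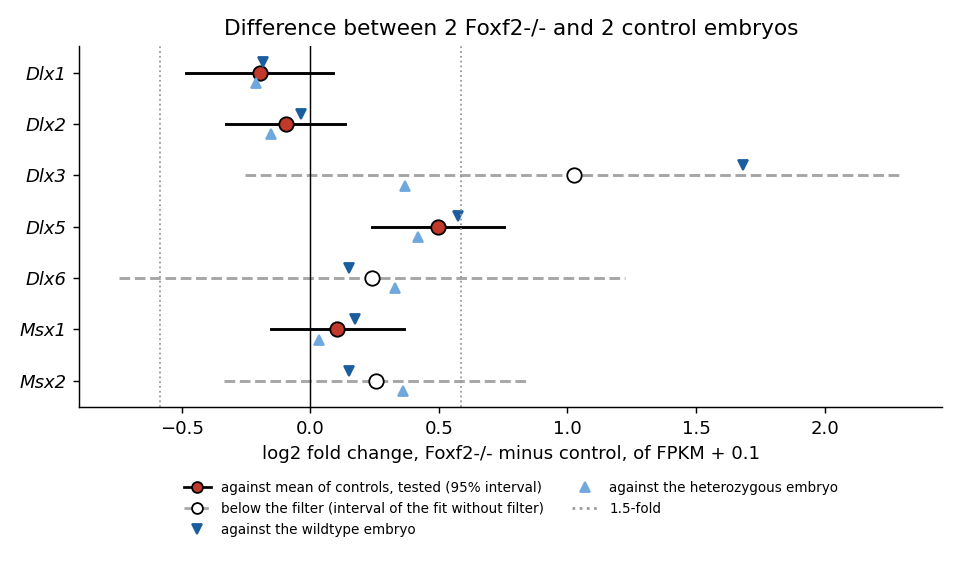
Log2 fold change of 7 members, Foxf2-/- minus control, on FPKM + 0.1. Filled circles are tested genes with the 95% interval of the limma fit, open circles are genes below the filter with the interval of a fit without it, triangles give the change against each control, and dotted lines mark 1.5-fold. The interval of Dlx5, 0.24 to 0.75, lies above 0, and those of the other 6 genes cross it. Dlx4, listed at 0 in both mutants, is not drawn.

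**Figure D3:**
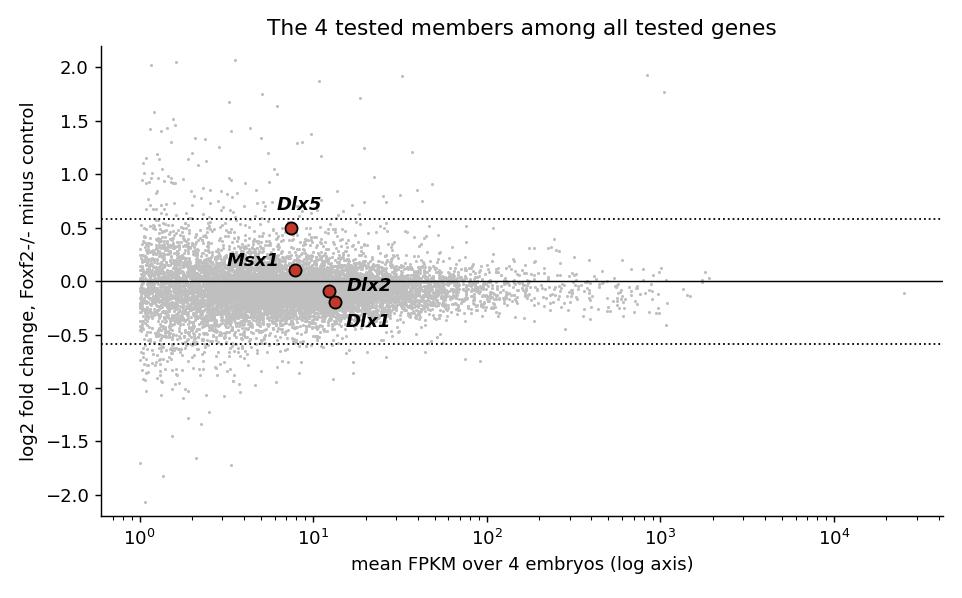
Log2 fold change, Foxf2-/- minus control, against mean FPKM on a log axis for the 11154 tested genes (grey), with the 4 tested members in red and dotted lines at 1.5-fold. Dlx5 at 0.50 lies in the upper margin of the cloud, below the 1.5-fold line, and Dlx1, Dlx2 and Msx1 lie inside it. A further 14 genes, Foxf2 among them, fall outside the plotted range.

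Dlx5 is the only member listed with more than 1 transcript, of 1406 bases (NM_010056) and 1324 bases (NM_198854). The transcripts share the end of exon 1 and differ by 82 bases at the start of exon 2, chr6:6829629-6829710 on the minus strand, which the shorter leaves out. These are coding bases 356 to 437 of 867, before the stretch compared above. Since 82 is not a multiple of 3, skipping them shifts the reading frame, that of the homeobox stretch included. The FPKM of Dlx5 sums both transcripts. The 82 bases are shown in capitals between the last 15 bases of exon 1 and the next 15 bases of exon 2.
Dlx5 exon 2: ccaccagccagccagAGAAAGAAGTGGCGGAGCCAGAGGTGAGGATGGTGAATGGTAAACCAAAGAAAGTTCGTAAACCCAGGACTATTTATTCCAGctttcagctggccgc

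The longer transcript was estimated at 3.43 FPKM in the wildtype embryo, 5.55 in the heterozygous embryo, and 6.27 and 7.15 in the mutants, so it was above both controls in both. The shorter was estimated at 2.38 and 0.948 in these controls, and at 2.23 and 1.77 in the mutants, which overlapped. The longer transcript took 59.1% of Dlx5 in the wildtype embryo, 85.4% in the heterozygous embryo, and 73.7% and 80.2% in the mutants. Its share in the mutants lay between those of the controls. The 0.61 log2 fold change of the longer transcript was 0.94 against the wildtype embryo and 0.27 against the heterozygous embryo, so the split between transcripts varied more between controls than their sum. Reads over these 82 bases or the junctions beside them are the only ones that separate the transcripts.

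Dlx6, which is co-expressed with Dlx5 in the arches and lies 9834 bases from it on chr6:6813334-6817970, was low. It had 0.579 and 0.499 FPKM in the wildtype and heterozygous embryos, and 0.971 and 0.430 FPKM in the mutants. The highest and the lowest value were both from mutants, so the groups overlapped. In the fit without the filter its log2 fold change of 0.24 had an interval of -0.75 to 1.23 and a limma adjusted p = 0.855. With 0.1 added to each FPKM, Dlx5 was above Dlx6 by 3.12 and 3.46 on the log2 scale in the controls. In the mutants it was above Dlx6 by 3.00 and 4.09. The mean of this ratio differed by 0.26 between the groups (exact permutation test, two-sided, p = 1, where 2 against 2 embryos allow no p under 0.333). Transcripts of the opposite strand at this locus, Dlx6as and Dlx6os1, were at most 0.126 and 0.165 FPKM in any embryo.

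Dlx1 and Dlx2, which pattern the upper part of the arch and lie 9427 bases apart on chr2:71367502-71372037 and chr2:71381465-71384811, differed little between the genotypes. Dlx1 had 14.0 FPKM in the wildtype embryo, 14.3 in the heterozygous embryo, and 13.8 and 11.01 in the mutants. The mutants were below both controls, the first of them by less than the difference between the controls. The log2 fold change was -0.20 (SE 0.12, 95% interval -0.48 to 0.09, limma adjusted p = 0.536). Dlx2 had 12.2 and 13.2 FPKM in the wildtype and heterozygous embryos, and 11.5 and 12.4 FPKM in the mutants, so that the groups overlapped. Its log2 fold change was -0.10 (SE 0.10, 95% interval -0.33 to 0.14, limma adjusted p = 0.718). These intervals leave room for a fall of Dlx1 to 0.715-fold and of Dlx2 to 0.797-fold. The log2 ratio of Dlx1 to Dlx2 was 0.19 and 0.11 in the controls and 0.26 and -0.16 in the mutants (difference -0.10, exact permutation test, two-sided, p = 1).

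Dlx1as, on the opposite strand, overlaps the Dlx1 locus over 3343 bases. It had 6.14 and 7.60 FPKM in the controls, against 7.07 and 6.46 FPKM in the mutants, with a log2 fold change of -0.02. The library kit does not keep strand, so reads from the overlap cannot be assigned to either strand. The 2 entries summed gave a log2 fold change of -0.14 (95% interval -0.40 to 0.13, limma adjusted p = 0.640), of which Dlx1as took 30.5% to 37.0%.

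Dlx3 and Dlx4, the members of most distal arch mesenchyme, of which Dlx3 is also needed in skin, hair and enamel, had the lowest mean levels of the family. Dlx3, at chr11:94981431-94986605, had 0.0813 FPKM in the wildtype embryo, 0.351 in the heterozygous embryo, and 0.365 and 0.629 in the mutants. The mutants were above both controls, but the heterozygous embryo was nearer to them than to the other control. It was 3.21-fold higher than in the wildtype embryo but 1.29-fold higher than in the heterozygous embryo. In the fit without the filter the interval of its log2 fold change was -0.25 to 2.31, with a limma adjusted p = 0.550. The order of the embryos was again that of the epithelial and endothelial marker sums, but not that of the single epithelial markers. All 10 epithelial markers were above 0 in all embryos, among them Trp63 with 0.564 to 1.07 FPKM and Epcam with 0.901 to 1.69 FPKM, and 6 of the 10 had a mean under 1 FPKM. Their part in the level of Dlx3 was not tested.

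Dlx4, at chr11:95001761-95007115, had 0.0281 FPKM in the wildtype embryo and 0.145 in the heterozygous embryo, and was listed at 0 in both mutants. Coverage multiplied by length put this at 69.6 and 426 sequenced bases in the controls, against 10823 to 19233 for Dlx5. No fold is given, and at this depth a loss of Dlx4 could not be told from its low level in the controls.

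Msx1, which acts with Bmp4 in tooth and palatal mesenchyme, had 7.17 FPKM in the wildtype embryo, 7.91 in the heterozygous embryo, and 7.72 and 8.51 in the mutants. The groups overlapped. The log2 fold change was 0.10 (SE 0.11, 95% interval -0.15 to 0.36, limma adjusted p = 0.723), so changes beyond 0.899-fold and 1.29-fold lay outside the interval. Msx2, at chr13:53562250-53568149 and known from skull and tooth development, had 0.787 and 0.666 FPKM in the wildtype and heterozygous embryos, and 0.949 and 0.822 FPKM in the mutants. These were above both controls, by 0.15 on the log2 scale against the wildtype embryo and 0.36 against the heterozygous embryo. In the fit without the filter its log2 fold change of 0.26 had an interval of -0.34 to 0.85 and a limma adjusted p = 0.735. With 0.1 added to each FPKM, the log2 ratio of Msx1 to Msx2 was 3.03 and 3.39 in the controls. In the mutants it was 2.90 and 3.22 (difference -0.15, exact permutation test, two-sided, p = 0.667).

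The highest estimate at these loci was that of a transcript antisense to Msx1. Msx1as had 34.7 and 36.9 FPKM in the wildtype and heterozygous embryos, and 36.6 and 36.4 FPKM in the mutants. Its level was thus 81.1% to 82.9% of the sum with Msx1, and it did not differ beyond its spread (log2 fold change 0.03, limma adjusted p = 0.911). It is annotated as an unspliced transcript of 2188 bases at chr5:38211803-38213990, within the locus of Msx1 at chr5:38211730-38215824. Of its bases, 1137 overlap exon 2 of Msx1, including all 440 coding bases of that exon with the homeobox, and 1051 lie in the intron of Msx1. Because the library kit does not keep strand, reads of exon 2 could be given to either transcript, and the FPKM of Msx1 depends on that split. The 2 entries summed to 41.8, 44.8, 44.3 and 44.9 FPKM in the same order of embryos, a log2 difference of 0.04 (limma adjusted p = 0.862). Neither the member alone nor the sum differed between genotypes beyond the spread between embryos.

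**Figure D4:**
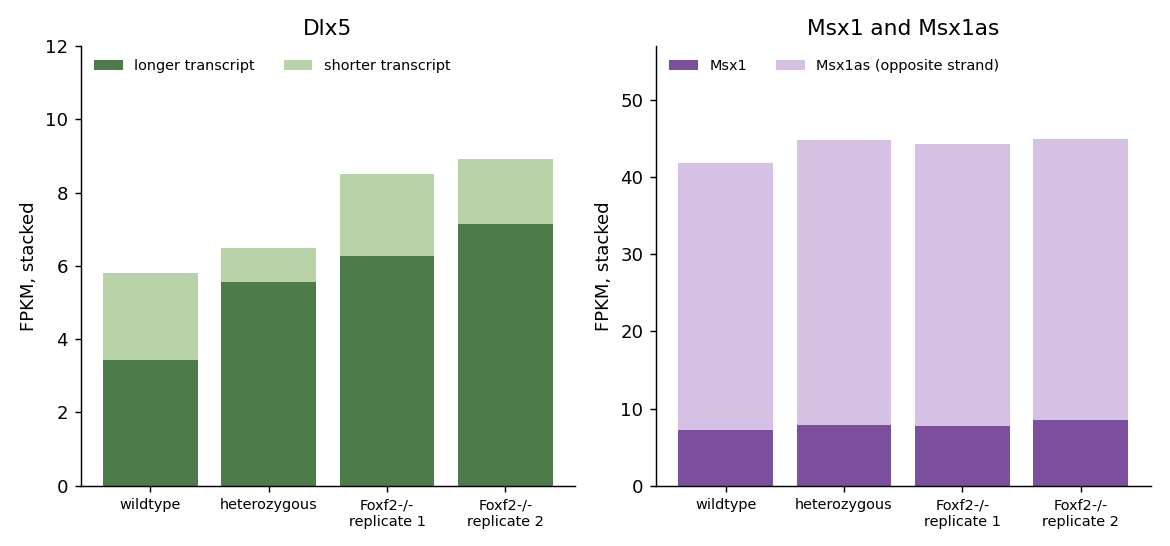
FPKM by embryo as stacked bars starting at 0. Left, the longer and shorter transcript of Dlx5, whose sum was 5.81 and 6.50 in the controls and 8.50 and 8.92 in the mutants. Right, Msx1 and the overlapping Msx1as of the opposite strand, of which Msx1as was 81.1% to 82.9% in every embryo.

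The genes that act with the Dlx and Msx factors were compared through 9 lists of 74 genes, of which 58 were tested. Of these, 1 was higher and 1 lower by more than 1.5-fold against both controls, or 3.45% against 1.4% of all tested genes. By limma 0 were called and 12 stood at an unadjusted p under 0.05, which 13% of all tested genes did, with a least adjusted p = 0.102. The mutants did not overlap the controls in 25 of the 58 (43.1%), 8 above and 17 below, against 45.7% of all tested genes. The median log2 fold change was -0.08, and it was also -0.08 over all tested genes. Of the 16 list genes below the filter, 3 were past 1.5-fold against both controls, against 8.03% of all genes below the filter. These were Gbx2, higher, Ibsp, lower, and Hand2, which was listed at 0 in both controls and passed only through the added 0.1. All 3 were at less than 1 FPKM in every embryo.

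Gsc, a homeobox gene that lies downstream of endothelin and Dlx5/6 in the mandibular arch, was the list member that was lower. It had 4.30 and 4.81 FPKM in the wildtype and heterozygous embryos, and 2.32 and 2.33 FPKM in the mutants. Its log2 fold change was -0.94 (SE 0.13), with a limma adjusted p = 0.102. Nr2f2, a nuclear receptor gene of the maxillary arch, was the list member that was higher, with 3.97 and 4.63 FPKM in the controls, against 6.89 and 7.56 FPKM in the mutants. Its log2 fold change was 0.74 (SE 0.12), with a limma adjusted p = 0.123. Gsc and Dlx5, which are placed in the same mandibular pathway, thus had values on opposite sides of the controls.

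In the mandibular arch list, 7 of 11 genes were tested and Gsc was the only 1 past 1.5-fold, with a median log2 fold change of -0.05. Its highest member was the endothelin receptor gene Ednra, with 101, 91.8, 90.0 and 95.7 FPKM in the wildtype, heterozygous and mutant embryos in turn. The ligand gene Edn1 and the Dlx5/6 targets Hand1 and Hand2 were listed at 0 in both controls, and reached at most 0.0495, 0 and 0.0797 FPKM in the mutants. Of the 7 maxillary and dorsal arch genes, all tested, only Nr2f2 passed 1.5-fold, with a median log2 fold change of -0.20. Among 14 other homeobox genes of facial mesenchyme, 11 were tested and only Gsc passed 1.5-fold, with a median log2 fold change of -0.14. Barx1, a marker of the posterior palate, was highest with 217 and 200.1 FPKM in the controls, against 201 and 239 FPKM in the mutants.

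None of the genes of the Bmp pathway passed 1.5-fold against both controls. All 5 ligands were tested, with a median log2 fold change of -0.13, and Bmp4 was highest with 40.3 and 41.9 FPKM in the controls, against 34.8 and 40.5 FPKM in the mutants. Of 10 receptor and Smad genes, 9 were tested, with a median of -0.03, and the receptor gene Bmpr2 stood at 40.1 to 42.0 FPKM in all 4 embryos. Of 11 antagonist and feedback genes, 9 were tested, with a median of 0.02. The highest was Id3, an inhibitor of basic helix-loop-helix factors, with 70.3 and 76.0 FPKM in the controls, against 68.0 and 80.4 FPKM in the mutants. The palatal signals that act with Msx1 and Dlx5 had 6 of 7 genes tested, none past 1.5-fold, and a median of -0.16. Their highest member was the Shh receptor gene Ptch1, with 109 and 106 FPKM in the controls, against 91.1 and 97.9 FPKM in the mutants.

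Of the 9 bone formation genes placed downstream of Dlx5 and Msx2, 4 were tested and none passed 1.5-fold, with a median of 0.08. Col1a1, the collagen gene of bone and other connective tissue, was highest with 272 and 227 FPKM in the controls, against 257 and 304 FPKM in the mutants, and the other 5 genes were under 1 FPKM on average. The 4 genes for proteins that bind Dlx or Msx factors were all tested, with a median of 0.05 and none past 1.5-fold. Maged1, which binds Dlx and Msx proteins, was highest with 276 and 273 FPKM in the controls, against 246 and 281 FPKM in the mutants.

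**Figure D5:**
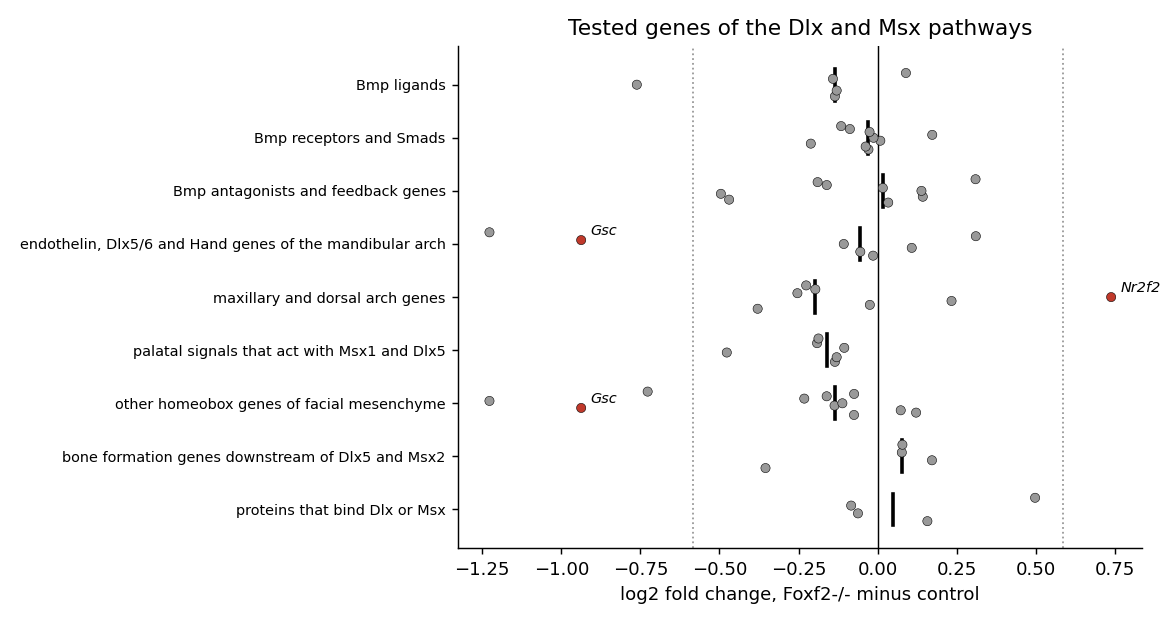
Log2 fold change, Foxf2-/- minus control, of the 58 tested genes of the 9 lists. Each point is a gene, thick bars are list medians, dotted lines mark 1.5-fold, and red points are past 1.5-fold against both controls. Gsc, drawn in both lists that hold it, is at -0.94 and Nr2f2 at 0.74, and all 9 medians lie between -0.20 and 0.08.

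The genes next to the members were compared as well, 3 on each side of the 5 loci. Of the 30 neighbours, 21 were tested, and 0 passed 1.5-fold against both controls or the limma threshold. Of the 21, 3 stood at an unadjusted limma p under 0.05, which 13% of all tested genes did. The log2 fold changes of the 21 ran from -0.43 for Metap1d, which lies 4.25 kb from Dlx1, to 0.55 for Stk32b, which lies 103 kb from Msx1. Metap1d had 11.5 and 12.9 FPKM in the controls, against 8.76 and 9.28 FPKM in the mutants, below both controls (limma adjusted p = 0.236). Stk32b had 4.87 and 6.84 FPKM in the controls, against 7.68 and 9.40 FPKM in the mutants, above both controls (limma adjusted p = 0.308). The tested neighbours of Dlx5 and Dlx6 had log2 fold changes of -0.30 to -0.01, and the nearest of them, Acn9 at 74.0 kb, was at 10.0 and 11.4 FPKM in the controls, against 8.01 and 9.94 FPKM in the mutants. Of these 4, Acn9 and Asns were below both controls in the mutants. Shfm1 and Slc25a13 overlapped between the groups, each with a log2 fold change of -0.01, and none of the 4 passed the threshold. The tested neighbours of Dlx3 and Dlx4 ranged from -0.06 to 0.10 and those of Msx2 from -0.21 to 0.10.

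Of the 11153 other tested genes, those whose profile over the 4 embryos was nearest to that of Dlx5 were Svep1, Capg, Mfhas1, Trpc4 and Runx1t1. The distance was Euclidean between mean-centred log2 values over 4 embryos, and it ran from 0.039 for Svep1 to 0.058 for Runx1t1. Svep1 had 3.55 and 4.06 FPKM in the controls, against 5.12 and 5.44 FPKM in the mutants. Runx1t1 had 21.6 and 23.3 FPKM in the controls, against 30.8 and 31.3 FPKM in the mutants, and a limma adjusted p = 0.157. With 4 points per gene, many genes can have a like profile, and these values are a description.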

How the data were processed

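RNA from FACS-isolated RFP+ palatal cells of 4 E13.5 embryos was sequenced single-end from libraries that do not keep strand. The authors mapped reads to mm9 with Tophat and Bowtie (0.12.7 per the submitters' notes) and deposited FPKM and coverage, the mean read signal over each transcript, 1 table per embryo. The FPKM program's version and the read length are not given in the sources used here.

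The 28107 RefSeq entries were summed by symbol, without entries under 200 bases and without 10 genes with a failed estimate. log2(FPKM + 0.1) was fitted with limma 3.58.1 in R 4.3.3 (variance trend, Benjamini-Hochberg) for genes with a mean FPKM of at least 1. The study's Audic-Claverie test needs read numbers and was not used. Its 1.5-fold cutoff was applied to the mutant mean against each control. Ratios of FPKM + 0.1 were compared by exact permutation tests. That of Dlx3 to Dlx4 is not reported because Dlx4 was listed at 0. The fit was tested on simulated data. Exons and sequence came from GENCODE vM1 and NCBIM37 (mm9), and 1 was added to the deposited starts.

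Named genes were the 8 members, 3 neighbours on each side of a locus, list genes past a threshold or highest in their list, and the 5 genes nearest in profile to the tested member with the largest change. Hand1, Hand2, Gbx2, Ibsp, Edn1, Epcam, Trp63, Col2a1, Cdh1, Cdh5, Kdr, Emcn, Sox10, Matn1, Actc1 and Shox2 were named after their values were seen. The highest gene of the maxillary and dorsal arch list is not reported here. Members and lists were chosen with earlier results of these data known.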

Additional observations from a re-analysis of the deposited data

How the results depend on the processing

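In the 60 alternative values of the 4 tested members, 0 changed direction and 0 crossed the limma threshold. For Dlx5 the log2 fold change ran from 0.42 to 0.60 over 15 alternatives and its limma adjusted p from 0.140 to 0.720. The number of members past the fold cutoff against both controls was 1, Dlx5, at 1.3-fold and 0 under the other alternatives run. Only the alternative without the filter included the 4 members under 1 FPKM, and it kept the added 0.1. Over all genes, the limma calls, 7 as reported, were 13 with a pseudocount of 1, 0 with no filter (1777 at an unadjusted p under 0.05), 27 with all entries summed, 12 with upper-quartile scaling, 0 with no variance trend (1264 at an unadjusted p under 0.05), 20 with a mean for each of the 3 genotypes, and 15 with the number of null alleles as a linear term. They were 7 to 38 without 1 embryo, the 38 without the heterozygous embryo, where the lone control is assumed to vary like the others. The genes past 1.5-fold against both controls, 156 as reported, were 67 with a pseudocount of 1, 639 with no filter, 49 among genes that reached 5 FPKM in any embryo, 291 with all entries, 476 at 1.3-fold, 36 at 2-fold, 309 against the mean of the controls only, and 213 and 240 without Foxf2-/- replicate 1 and 2. This count needs both controls, so neither was left out. The differences in log2 ratio within a pair changed sign when 1 embryo was left out, and no test was run on these values. The Msx1 to Msx2 difference then ran from -0.33 without the wildtype embryo to 0.025 without the heterozygous embryo, and was 0.012 without Foxf2-/- replicate 1. The Dlx1 to Dlx2 difference ran from -0.32 without Foxf2-/- replicate 1 to 0.11 without replicate 2, and the Dlx5 to Dlx6 difference from 0.80 to -0.29 in the same order. The cause was not tested. The sums with antisense entries were chosen after seeing the data. No paired analysis was possible because the controls carry no replicate numbers. Dlx3, Dlx4, Dlx6 and Msx2, under 1 FPKM on average, were not tested by the fit reported, and depth in reads, which would limit them, is unknown.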

Other observations

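Below the filter of a mean FPKM of 1, 2 of 9 neighbours differed from both controls by more than 1.5-fold, against 8.03% of all genes below the filter, and they were chosen after their values were seen. Tac1, the gene of a tachykinin neuropeptide, lies 673 kb from the Dlx5 and Dlx6 locus and had 0.726 and 0.297 FPKM in the wildtype and heterozygous embryos, and 1.24 and 1.69 FPKM in the mutants. Cytl1, a gene of a secreted cytokine-like protein, lies 80.7 kb from Msx1 and had 0.205 and 0.178 FPKM in the controls, against 0.598 and 0.671 FPKM in the mutants. The mutants were above both controls in each, and neither gene was tested.

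Pax9, a paired-box gene needed for palate growth whose protein binds Msx1, is on the list of proteins that bind Dlx or Msx. It had 81.2 FPKM in the wildtype embryo, 100.1 in the heterozygous embryo, and 127 in each of the mutants, a log2 difference of 0.50 (limma adjusted p = 0.203). Id1, a Bmp target, had 65.4 and 60.04 FPKM in the controls, against 45.9 and 43.0 FPKM in the mutants, a log2 difference of -0.50 (limma adjusted p = 0.150), whereas Id3 overlapped between the groups. Neither passed the threshold. Both were chosen after their values were seen.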
